A study of Rattus norvegicus with 2 samples.

Results

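The loci described here were 3986 stretches of the rat genome that the authors assembled from sequencing reads, that overlapped no annotated gene, and that were seen in the urine of rats with a blocked ureter but were listed at 0 in control urine. They were chosen by their measured values, namely an FPKM of at least 5 in UUO urine and an FPKM of 0 in WT urine, among assembled features whose listed locus belonged to no other feature. FPKM counts the sequenced fragments of a feature per kilobase of its length, scaled to the total of the library. The 3986 loci are 3.53% of 113011 listed features, and came from 6139 assembled features (names beginning with XLOC), of which 5076 were alone at their locus. The levels in both libraries chose the loci, so the contrast between the libraries is given as a description only.

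RNA was sequenced from urine of Sprague Dawley rats in 2 libraries, 1 per group. The UUO rats had the right ureter tied (unilateral ureteral obstruction, a model of kidney scarring), and the rats labelled WT underwent the same operation without ligation. The labels give an age of 8 weeks (postnatal day 56) for both groups and 2 weeks between surgery and kidney collection, without a genotype and without the number of rats behind a library. Per the study's methods, urine was drawn from the ureter by catheter in both groups and its first portion was discarded, and the sequencing itself is described for kidney RNA only. The deposited table calls its conditions UrRf and Urc, which were read as UUO and WT, and every direction here rests on that reading. With 1 library per group no difference has a replicate check, and no p-value was computed.

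Urine carries RNA in shed cells of the urinary tract and kidney, in blood cells and in vesicles, along with fragments of nucleic acid outside cells. An assembler joins overlapping aligned reads into transcript models, and a model that matches no annotation receives a locus name of its own. Such a locus can be, among other things, part of a long noncoding RNA or an unannotated end of a known gene, and the table holds no strand or exon structure that would tell these apart. It also holds no sequence. The gene IDs made only of numbers are called annotated genes below, and their symbols were taken from a RefSeq table. Coordinates are those of the deposited table, for which the submitters' notes name the build rn5.

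Most of the 3986 loci were short and rested on few fragments. Their span had a median of 545 bases, with quartiles of 407 and 697, and ranged from 201 to 190706 bases. Their FPKM in UUO urine had a median of 10.6, with quartiles of 7.43 and 16.4, and reached 209. Of them 1853 (46.5%) lay under an FPKM of 10, and 11 reached 100. Together they held 11.6% of the summed FPKM of UUO urine. FPKM is divided by length, so this sum weighs short loci more than their fragments would. Over all 113011 features, 5.18% met the same 2 limits on FPKM. Among assembled features alone at their locus 78.5% did, and among the 16484 annotated genes 3.05%. These shares restate the rule that chose the loci.

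FPKM values of a library move in steps, because each stands for a whole number of fragments. For assembled loci of 400 to 1200 bases the steps in UUO urine were fitted by a normalising total of 2446000 fragments and a length correction of 176 bases, with 99.5% of 3530 values within 0.1 of a whole number. By these steps 2949 of the 2957 loci in this range of spans gave a whole number of fragments. The median was 9 fragments, with quartiles of 8 and 11, and 2443 loci (82.8%) held 7 to 12 fragments. Only 80 held fewer than 7, and 50 held more than 20. The 2949 loci together held 29965 fragments, or 1.23% of the normalising total. The 11.6% of summed FPKM given above covers all 3986 loci and is not a share of fragments.

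The FPKM of a locus fell with its span. Spearman's rho between span and FPKM was -0.72 over the 2949 loci with whole fragments, while that between span and the number of fragments was 0.33. Both are descriptions across loci of 1 library, and span enters FPKM by definition. The lower limit on FPKM that chose the loci also asks for more fragments at longer spans. The rho between span and fragments is therefore built in at least in part, and how much of it the limit brings about was not tested. Loci of under 300 bases numbered 345 and had a median FPKM of 39.7, loci from 400 to under 500 bases numbered 726 with a median of 13.1, and loci from 800 to under 1000 bases numbered 365 with a median of 6.31. Over the last 2 of these classes the median number of fragments was 9 and 11, a rise that the same limit favours. A high FPKM in this set was mostly a short span: of the 118 loci at an FPKM of 50 or more, 106 spanned under 300 bases and 4 spanned 2000 or more.

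**Figure D1:**
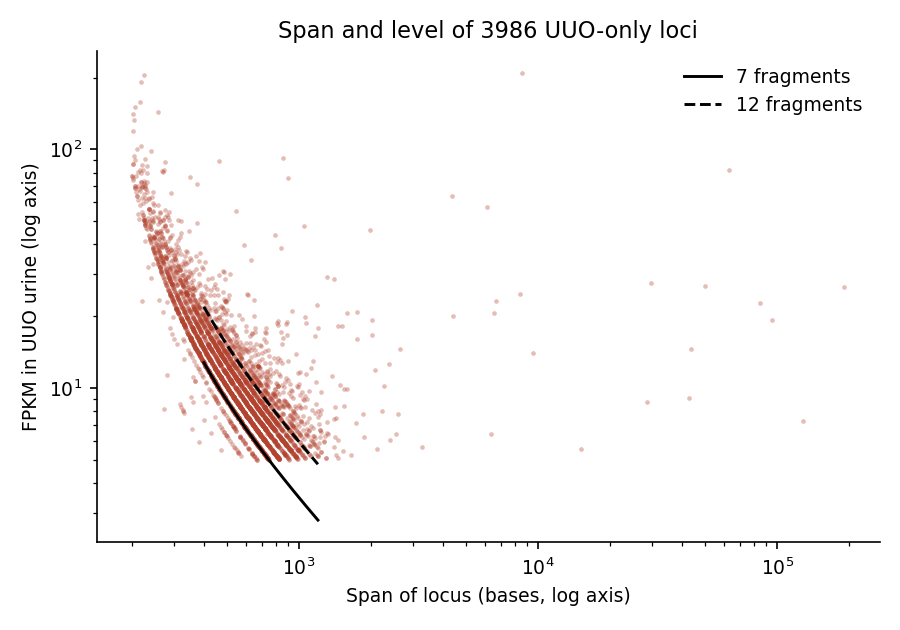
Each point is 1 of the 3986 loci, with its span in bases on the horizontal log axis and its FPKM in UUO urine on the vertical log axis, and the lines give the FPKM of 7 and of 12 fragments at spans of 400 to 1200 bases. At spans of 400 to 1200 bases the points lie on separate descending lines, 1 for each whole number of fragments, and 82.8% of the loci with whole fragments there lie at 7 to 12.

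Among the 10 loci with the highest FPKM, 9 spanned between 202 and 257 bases. The highest, XLOC_016538 on chromosome 18 (31023594 to 31032184, a span of 8590 bases), was the exception, at 209 FPKM in UUO urine and listed at 0 in WT urine. Its nearest annotated gene was Dele1, a mitochondrial stress messenger, 44764 bases away. Dele1 itself was at 18.5 FPKM in UUO urine against 49.4 in WT urine.

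XLOC_013429 on chromosome 15 (106882292 to 106882516) reached 206 FPKM in UUO urine and lay 74134 bases from Gpr180, a membrane receptor gene at 6.97 in UUO and 2.25 in WT urine. XLOC_035723 on chromosome 9 (11330814 to 11331033) reached 191 FPKM, and its nearest gene was Dazl, a germ-cell RNA-binding protein gene listed at 0 in both libraries, 243991 bases away. XLOC_005075 on chromosome 10 (34263387 to 34263589) reached 141 FPKM and lay 32426 bases from Mgat1, which starts the building of complex N-glycans and was at 17.95 in UUO and 23.05 in WT urine.

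For the other 6 of these 10, the nearest genes were under 5 FPKM in both libraries. XLOC_030848 (FPKM 159) had Timp3, an inhibitor of matrix metalloproteinases, as its nearest gene, at 2.27 FPKM in UUO urine and 0 in WT urine. XLOC_008576 (FPKM 150.1) lay near the start of chromosome 12, 390746 bases from Brca2, a DNA repair gene listed at 2.65e-05 in UUO and 0 in WT urine. XLOC_000328 (FPKM 144) had the vomeronasal receptor gene Vom2r9 as its neighbour, at 0.324 FPKM in UUO urine and 0 in WT urine. XLOC_019468 (FPKM 133) lay 93727 bases from the ribosomal protein gene Rps15a, listed at 0 in both libraries. XLOC_011268 (FPKM 119) was nearest to the calcium sensor gene Stim2, at 4.09 FPKM in UUO urine and 3.27 in WT urine. XLOC_018848 (FPKM 103) lay 15669 bases from Tspan2, a tetraspanin gene at 0.446 in UUO and 0 in WT urine.

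A few loci were long. Of the 3986, 32 spanned 2000 bases or more and 11 spanned 10000 or more. FPKM of a long locus rests on the length of its exons, which the table does not give, so no number of fragments was taken from these. The longest, XLOC_003576 on chromosome 1 (154749760 to 154940466), reached 26.5 FPKM in UUO urine and lay 8715 bases from the gene numbered 652956, which was at 449 in UUO and 195 in WT urine. XLOC_030597 on chromosome 7 spanned 127869 bases, with an FPKM of 7.28. XLOC_035845 and XLOC_035846, neighbours on chromosome 9, spanned 94734 and 84465 bases with FPKM of 19.2 and 22.6. XLOC_021741 on chromosome 3 spanned 62886 bases with an FPKM of 82.1, and its nearest gene was Orc4, a subunit of the origin recognition complex, at 3.22 in UUO and 23.6 in WT urine.

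By number of fragments the order was another one. The following 4 loci were picked after their values were seen, as those with the most fragments. XLOC_015332 on chromosome 17 (12767044 to 12767945) held 134 fragments at an FPKM of 75.6, and XLOC_010951 on chromosome 13 (116003930 to 116004984) held 103 at an FPKM of 48.0. XLOC_021885 on chromosome 3 and XLOC_002704 on chromosome 1 held 63 fragments each, at FPKM of 89.6 and 38.6. At these 4 loci WT urine was listed at 0 too.

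The limit of 5 on FPKM cut through a continuous range. Just inside it lay XLOC_028804 and XLOC_031871, each at an FPKM of 5.0071 from 6 fragments over 666 bases, XLOC_030021 at 5.0073 from 9 fragments over 911 bases, and XLOC_004803 and XLOC_003597, each at 5.0131 from 7 fragments over 747 bases. Just outside lay XLOC_030948 at 4.9969, from 6 fragments over 667 bases, XLOC_019083 at 4.9956, from 7 over 749 bases, XLOC_013457 at 4.9917, XLOC_022787 at 4.98696, from 9 fragments over 914 bases, and XLOC_003602 at 4.98694, from 8 over 832 bases. Loci with the same number of fragments lay on either side of the limit with spans a few bases apart. In all, 467 assembled loci alone at their position were at 0 in WT urine and under the limit in UUO urine, the lowest at 0.951.

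In WT urine 3 fragments, taken as the limit that a count of 0 allows, would have given an FPKM of 1.32 to 5.21 over the spans of 400 to 1200 bases, with a median of 2.95. The WT steps were fitted by a total of 2116000 fragments and a correction of 128 bases, with 93.5% of 186 values within 0.1 of a whole number. Such limits cover counting error only, and a listed 0 can also be a failed estimate.

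The share of loci at 0 in WT urine was smaller in classes with more fragments in UUO urine, as a description with no test. Over all assembled loci alone at their position with spans of 400 to 1200 bases, WT urine was at 0 for 198 of 198 with 1 to 6 UUO fragments and for 2713 of 2784 (97.4%, exact binomial 95% interval 96.8% to 98.0%) with 7 to 12. It was at 0 for 376 of 424 (88.7%) with 13 to 20 fragments, for 45 of 88 (51.1%, interval 40.2% to 61.9%) with 21 to 50, and for 5 of 18 (27.8%, interval 9.69% to 53.5%) with 51 or more. Most of the UUO-only set stood in the class of 7 to 12. The rule used the levels in both libraries too, so these shares are no separate support for it. Loci are not replicates, and the intervals cover counting error only.

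Assembled loci of other patterns had other spans. The 194 loci with an FPKM of at least 5 in WT and 0 in UUO urine had a median span of 228.5 bases (order-statistic 95% interval 223 to 236), against 545 (537 to 555) for the UUO-only loci, and 88.7% of them spanned under 300 bases against 8.66%. Their median FPKM in WT urine was 96.8, which goes with their short spans. At spans of under 300 bases it was 95.7, where the UUO-only loci had a median of 39.7 in UUO urine. These levels come from different libraries. The 427 loci with an FPKM of at least 1 in both libraries had a median span of 549 bases, close to the UUO-only loci, but a wider spread, with quartiles of 300 and 956.5. In the range of 400 to 1200 bases these shared loci had a median of 15 fragments in UUO urine, against 9 in the UUO-only loci. Loci are not replicates, these intervals cover counting error only, and no test between the 3 kinds was made.

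The UUO-only loci lay on all 20 autosomes. There were 3940 on chromosomes 1 to 20, 41 on chromosome X and 5 on unplaced sequences. With the highest listed coordinate taken as the length of a chromosome, the autosomes together held 1.43 loci per Mb. The autosomal densities ran from 0.886 per Mb on chromosome 4 (220 loci) to 1.90 on chromosome 19 (138 loci), with 1.84 on chromosome 10 (206 loci) and 1.82 on chromosome 12 (99 loci). Chromosome 1, with the most loci, had 462, or 1.59 per Mb. The median number of fragments per locus was between 9 and 10 on every autosome and was 10 on chromosome X.

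Chromosome X stood far below the autosomes. Its 41 loci made 0.265 per Mb (exact Poisson 95% interval 0.190 to 0.360, counting error only), 18.5% of the autosomal density, where 222 loci would have matched that density. Annotated genes were also sparser on X, at 3.43 per Mb against 5.81, but this was 59.0% of their autosomal density. Shared assembled loci stood at 56.1% and WT-only loci at 76.4%, the last from 8 loci on X. The part of X free of other listed features was 80.7%, against 68.2% of the autosomes. Of the 154 windows of 1 Mb on X, 120 (77.9%) held no UUO-only locus, and none held more than 3. The sex of the rats is not given, and no cause of the low number on X was tested.

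**Figure D2:**
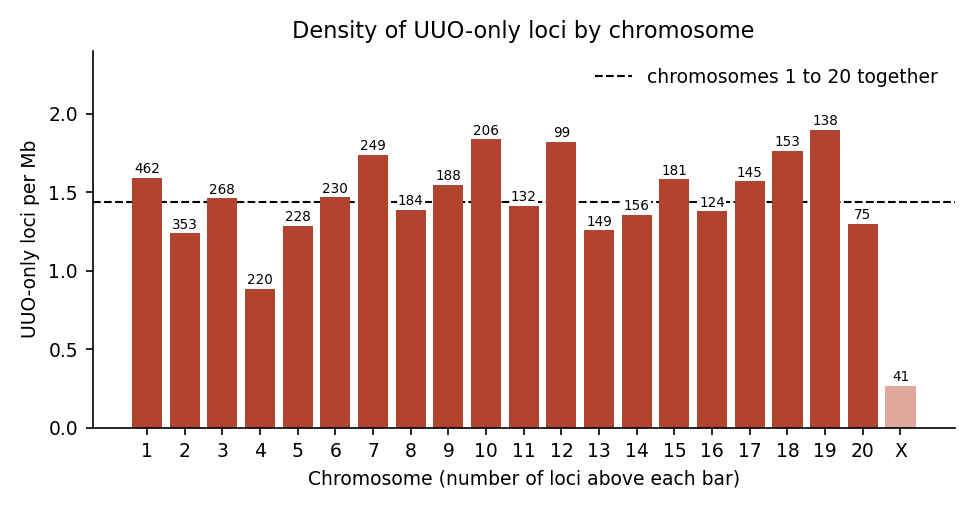
Bars give the number of UUO-only loci per Mb (vertical axis) on chromosomes 1 to 20 and X (horizontal axis), with the number of loci above each bar and the density of the autosomes together as a dashed line at 1.43. The autosomes run from 0.886 to 1.90, and X stands at 0.265.

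Along the autosomes the loci were scattered, with local runs. The gap from the end of a locus to the start of the next had a median of 374066 bases (95% interval 352846 to 396448), with quartiles of 111704 and 894055. Of 3920 such gaps 3043 (77.6%) were under 1 Mb and 101 were 3 Mb or more. The widest gap, 66.5 Mb on chromosome 4 (67199859 to 133745761), held 69 listed features, of which 8 were annotated genes. Outside it chromosome 4 had 1.21 loci per Mb. The next widest, 21.5 Mb on chromosome 2 (20292849 to 41814764), held 96 features, 10 of them annotated genes.

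Cut into 2738 windows of 1 Mb, the autosomes held a mean of 1.43 loci per window with a variance of 2.49, a ratio of 1.74. For annotated genes, at a mean of 5.80 per window, the ratio of variance to mean was 9.48, a larger value than that of the loci. There were 895 windows (32.7%) with 0 loci, 1313 with 1 or 2, and 128 with 5 or more. Windows without an annotated gene held 1.10 loci on average, windows with 3 to 5 genes 1.67, and windows with 21 or more genes 1.36. Spearman's rho between the numbers of loci and of genes in a window was 0.087. Windows of 1 chromosome share assembly and library, and this value is a description. The gap of 66.5 Mb on chromosome 4, with 8 annotated genes, is among the windows without loci. The window values were not recomputed without it. UUO-only loci overlapped no other listed feature, so windows with many genes also left less room for them, and no value was adjusted for this.

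**Figure D3:**
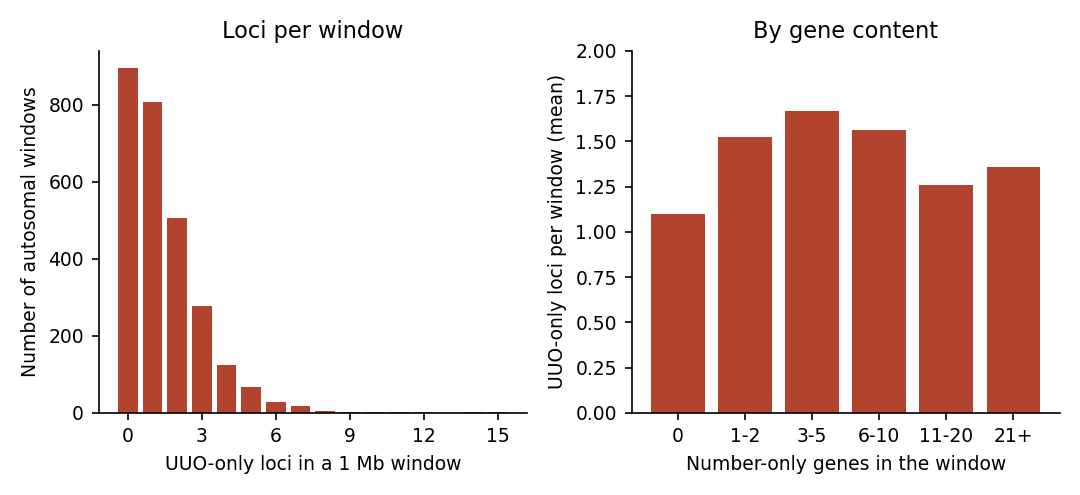
The left panel gives the number of autosomal 1 Mb windows (vertical axis) by the number of UUO-only loci they hold (horizontal axis), and the right panel the mean number of UUO-only loci per window (vertical axis) by the number of annotated (number-only) genes in it. Windows with 0 to 2 loci make up most of the left panel, and the means on the right lie between 1.10 and 1.67.

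The window with the most loci was on chromosome 1 from 56000001 to 57000000, with 15. Its loci fell in 2 parts. The first 5 (XLOC_002697, XLOC_002698, XLOC_002700, XLOC_002703 and XLOC_002704) lay from 56102525 to 56428560, and their nearest gene was Smok2a, a sperm motility kinase gene at 0.922 FPKM in UUO urine and 0 in WT urine. In that order they reached 5.44, 8.60, 16.3, 16.8 and 38.6 FPKM in UUO urine. The other 10, XLOC_000324 to XLOC_000333, lay from 56669464 to 56859937 and were nearest to the vomeronasal receptor gene Vom2r9, with FPKM from 5.14 to 144. All 15 were at 0 in WT urine, and the 2 neighbouring genes were under an FPKM of 1 in both libraries. Vomeronasal receptor genes form families of related copies, so values at such places can be uncertain, which was not tested.

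The next windows were on chromosome 7 (22000001 to 23000000) with 14 loci and no annotated gene, and at the start of chromosome 12 (1 to 1000000) with 12 loci. The genes nearest to the most loci were Timp3, outside the chromosome 7 window, and Brca2, inside the chromosome 12 window. Timp3 was nearest to 17, between 105119 and 1391551 bases away, and Brca2 to 12, between 196093 and 444189 bases away. Several genes followed with 10 loci each. The first 3 by gene number were Shox2, a limb and heart homeobox gene at 0.339 FPKM in UUO urine and 0 in WT urine, Sstr2, a somatostatin receptor gene, and Cntnap5b, a neuronal adhesion gene, the last 2 listed at 0 in both libraries. The others were Rbfox1, Cobl, Celf4, Tshz3, Man2b1 and Vom2r9. Cobl, an actin nucleator picked after its values were seen, was at 5.74 FPKM in UUO urine against 34.8 in WT urine.

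Loci close together were few. On the autosomes 305 loci stood in 136 runs of neighbours under 5000 bases apart, 114 of which were pairs, 14 held 3 loci, 5 held 4 and 3 held 5. The nearest genes of the runs of 5 were Vom2r9 at 37573 bases, Timp3 at 936095 bases and, at 17362 bases, Wnt7b, a secreted Wnt ligand. The 5 loci by Wnt7b (chromosome 7, 126174611 to 126186257) ranged from 6.78 to 19.9 FPKM, and Wnt7b was at 30.9 in UUO and 10.04 in WT urine. A run of 3 on chromosome 19 (36289601 to 36294378) ended 391 bases from Mir23a, the gene of a microRNA, listed at 0 in both libraries, and its loci had similar FPKM of 19.4, 23.3 and 21.6. A run of 3 near Frmd8 on chromosome 1 (228116891 to 228120530) had FPKM of 17.9, 19.9 and 18.7, while Frmd8 was lower in UUO than in WT urine at 15.0 against 44.5. Wnt7b, Mir23a and Frmd8 were picked after their values were seen. Whether members of a run are pieces of the same transcript was not tested, and they are not independent.

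No UUO-only locus overlapped another listed feature, as follows from how loci were merged in the table. For 3981 of them an annotated gene was listed on the same chromosome. The distance to the nearest had a median of 99083 bases (95% interval 92888 to 106102), with quartiles of 28114 and 269400, and reached 6789255 bases for XLOC_010341 on chromosome 13. Only 74 loci (1.86%) lay within 1000 bases of a gene, 510 (12.8%, exact binomial 95% interval 11.8% to 13.9%) within 10000 and 2000 (50.2%) within 100000. These distances run to the listed locus of a gene, which most annotated genes shared with another feature. A gene within a shared locus can itself lie farther away.

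Shared assembled loci were closer to genes. Their median distance was 24477 bases (20317 to 29657), with 32.7% (28.3% to 37.4%) within 10000 bases and 11.3% within 1000. The WT-only loci stood between, with a median of 43824.5 bases (28290 to 63368) and 29.4% (23.1% to 36.3%) within 10000. The intervals of the UUO-only and the shared loci did not overlap at any of these limits, but they cover counting error only and the comparison was not tested.

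**Figure D4:**
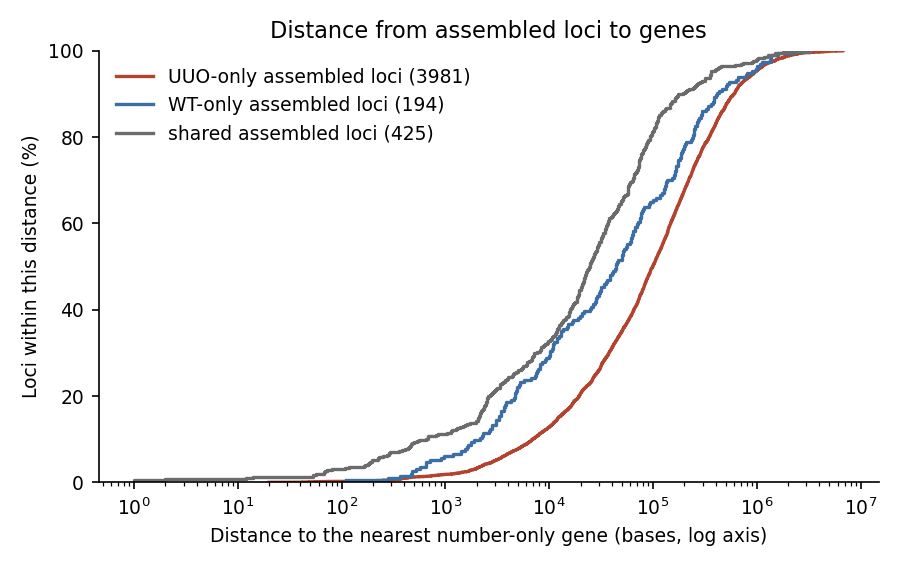
Lines give the percent of loci (vertical axis) that lie within a distance in bases (horizontal log axis) of the nearest annotated (number-only) gene, for 3981 UUO-only, 194 WT-only and 425 shared assembled loci. At 10000 bases the lines stand at 12.8%, 29.4% and 32.7%.

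The genes next to UUO-only loci were detected in UUO urine about as often as all annotated genes. The loci had 2414 different nearest genes, 97.3% of them protein-coding against 96.7% of all annotated genes. Of these 1355 (56.1%, exact binomial 95% interval 54.1% to 58.1%) had an FPKM of at least 1 in UUO urine, against 56.3% of all 16484 annotated genes. In WT urine the shares were 46.5% and 47.3%. The median FPKM of the nearest genes was 1.72 in UUO urine against 1.87 for all genes, and 0 in WT urine for both. In both libraries 24.0% of the nearest genes were listed at 0, against 26.0% of all. The listed spans of the nearest genes were longer, with a median of 34471.5 bases against 21854.5 for all, and the shares were not adjusted for span.

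The share varied little with distance up to 100000 bases and was lower beyond it. Among genes under 1000 bases from a UUO-only locus 54.1% (42.1% to 65.7%) were detected in UUO urine, and among those at 500000 bases or more 46.7% (40.7% to 52.8%). The highest share, 59.8%, was from 10000 to under 100000 bases, followed by 52.1% up to 500000. For the shared loci 91.3% (79.2% to 97.6%) of the 46 genes under 1000 bases away were detected, and 72.9% of all their nearest genes. For the WT-only loci the share over all distances was 64.2% (56.8% to 71.0%). A gene was counted once in each class of distance in which it was nearest to a locus.

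**Figure D5:**
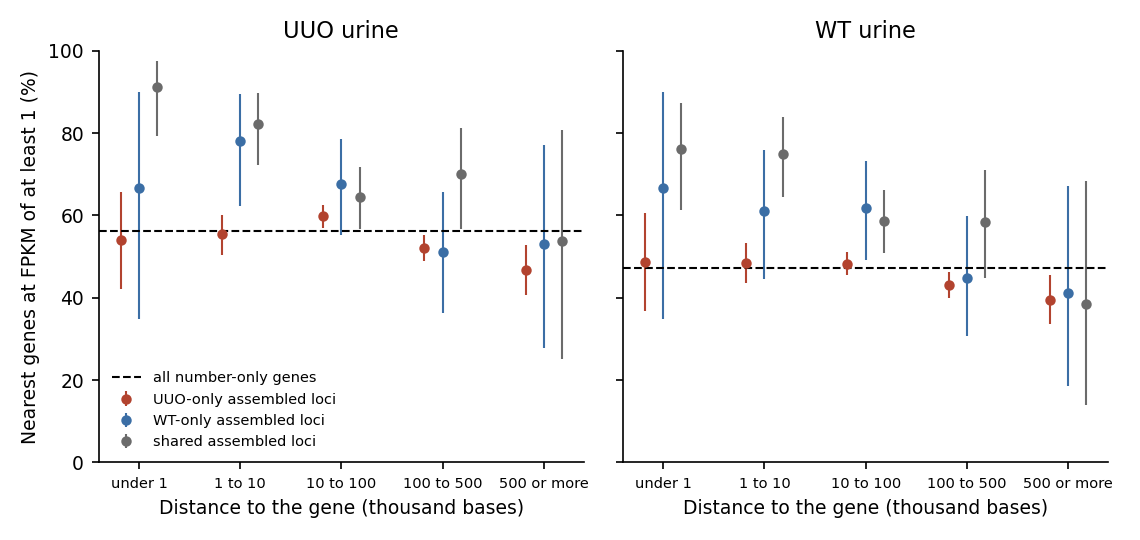
Points give the percent of nearest annotated (number-only) genes with an FPKM of at least 1 (vertical axis) by their distance from the locus in kilobases (horizontal axis), in UUO urine (left) and WT urine (right), with exact binomial 95% intervals as bars and all annotated genes as a dashed line. The UUO-only loci lie near the dashed lines at 56.3% and 47.3% under 10 kilobases and below them from 100 kilobases on, and the shared loci lie above them at short distance.

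The levels of locus and neighbour showed almost no rank correlation. Over 2944 loci with whole fragments, Spearman's rho between the fragments of the locus and the UUO FPKM of its nearest gene was -0.0026, and that between fragments and distance was -0.021, both as descriptions across loci of 1 library. The rule cut off low levels, and 82.8% of the loci with whole fragments held 7 to 12. So narrow a range of low counts can hide a relation, and these values cannot show that none exists. A gene was also counted again for each locus it was nearest to, up to 17. Among nearest genes with an FPKM of at least 1 in either library, 1451 in all, the difference of log2(FPKM + 1) was 1 or more in size and toward UUO for 403 (27.8%), and toward WT for 489 (33.7%). Over all 9853 annotated genes at that level the shares were 25.7% and 36.5%. The log2 difference had a median of -0.37 for the neighbours and -0.51 for all genes. These directions rest on the scaling. With UUO values multiplied by 1.54, which gives both libraries equal sums of FPKM and was chosen after seeing the data, the same nearest genes had a median of 0.18 and all genes of 0.04, with 503 nearest genes (34.7%) at 1 or more toward UUO and 303 (20.9%) toward WT, against 31.8% and 21.9% of all genes.

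The genes nearest to the loci by a few bases were varied. The following 4 were picked after their values were seen. XLOC_024041 on chromosome 3 (155801314 to 155802148, 18 fragments) lay 20 bases from Bpifb4, a gene of the lipid-binding BPI fold family at 0.213 FPKM in UUO urine and 0 in WT urine. XLOC_004955 on chromosome 10 lay 22 bases from Tpsab1, a mast cell tryptase gene listed at 0 in both. XLOC_000597 on chromosome 1 (81896193 to 81896880, 11 fragments) lay 42 bases from Nectin2, an adhesion gene at 24.2 in UUO and 9.58 in WT urine, and XLOC_001588 on chromosome 1 lay 43 bases from Spn, which encodes the leukocyte surface protein CD43 and was at 1.88 in UUO and 0 in WT urine. Whether such loci belong to the gene was not tested, and the listed locus of a gene can hold other features.

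The libraries held RNA of marker genes of the urinary tract and of cells that enter urine. Of 7 urothelial genes found, 7 were detected in UUO and 6 in WT urine, with summed FPKM of 1209 and 1363. Within these sums Psca was at 97.6 in UUO and 557 in WT urine. Upk1b and Krt20 were also lower in UUO urine, while Upk1a, Upk2, Upk3a and Krt5 were higher. All 4 collecting duct genes and all 4 genes of the loop and distal tubule were detected in both. Of 6 proximal tubule genes 4 were detected in UUO and 6 in WT urine, with summed FPKM of 40.1 and 125. Of 3 podocyte genes 2 and 1 were detected. Blood genes summed to 88752 FPKM in UUO urine against 3166 in WT urine, and leukocyte genes to 138 against 7.55. All 7 inflammation genes were listed at 0 in WT urine, while 5 were detected in UUO urine, with a summed FPKM of 364. The 6 fibroblast and matrix genes had summed FPKM of 49.1 and 40.1. None of these sums was rescaled, and small differences between the libraries rest on the scaling. The part of these cells in the UUO-only loci was not tested, and in bulk samples fewer cells of a type and less RNA per cell cannot be told apart.

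Of the 50 marker genes found, 8 (16%) were the nearest gene of a UUO-only locus, against 14.6% of all annotated genes. None of the blood, collecting duct or inflammation genes was among them. Within 10000 bases lay 3 loci. XLOC_035228 on chromosome 9 (51686897 to 51687262, FPKM 19.4 in UUO urine) was 2198 bases from Col3a1, a fibrillar collagen gene at 13.4 in UUO and 17.8 in WT urine. XLOC_007043 on chromosome 10 (82583023 to 82583373, FPKM 14.0) was 2659 bases from Col1a1, the main collagen gene of scar tissue, at 13.6 and 9.20. XLOC_003105 on chromosome 1 (90212414 to 90212695, FPKM 37.9) was 2904 bases from Upk1a, a uroplakin gene of the urothelial surface, at 277 in UUO and 169.5 in WT urine. A further locus lay 47772 bases from Col3a1. Farther off, single loci had the leukocyte gene Ptprc, the water channel gene Aqp1, the fibronectin gene Fn1 and the calcium-binding protein gene Calb1 as nearest gene, and 3 loci had the podocyte gene Podxl, at distances from 51971 to 399507 bases.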

How the data were processed

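RNA of 1 WT and 1 UUO urine library had been sequenced. The authors filtered reads for adapters, unknown bases and low quality, aligned them as pairs (TopHat) and built transcript models by means of both Scripture and Cufflinks, as the methods describe. The library methods (ribosomal RNA depletion, a kit that marks strand) are given for kidney RNA, and whether they held for urine is not given in the sources used here. The submitters' notes name Bowtie2 2.0.6, TopHat2 2.0.9, Cufflinks 2.1.1, Cuffdiff 2.1.1 and the build rn5. The deposited table gives the authors' FPKM for each feature and library, and read counts were not used here. Its columns of fold changes, test statistics, p-values and q-values hold the authors' own comparison and were not used. Urine RNA preparation is described with a column kit in the methods and with Trizol in the labels.

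The members and lists were chosen with earlier results of these data known. Loci were selected with Python 3.11.15, pandas 2.3.3 and SciPy 1.17.1. Whole fragments were read from FPKM steps, after a test on simulated data, by searching a normalising total (1500000 to 3498000 in steps of 2000) and a length correction (100 to 258 bases) that placed the most values within 0.1 of a whole number. PCR copies were not told apart. A gene was detected at an FPKM of at least 1. Changes were differences of log2(FPKM + 1), which understate those of low genes. Distances ran from edge to edge of the listed loci. Of the annotated genes 1107 were alone at their listed locus, and the others shared it with another feature. A distance to such a gene runs to the edge of the shared locus. Among genes with the same locus, that with the lowest gene number was taken as nearest. Of 16484 number-only gene IDs 16329 (99.1%) matched a symbol in the RefSeq table of GRCr8, from which no coordinate was taken. Of all features 106827 shared their locus with another, so the FPKM of overlapping genes is uncertain.

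Named are the 10 loci of highest FPKM, the 5 longest, the 5 on each side of the limit, the densest window, the nearest genes of the first 10, the 5 genes nearest to the most loci, and marker genes within 10000 bases. Ties for the last 3 of these genes were taken by gene number. Alternatives were other limits on FPKM and span, loci shared with other features, loci of at least 5 fragments, other distances, other gene filters and another pseudocount.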

Additional observations from a re-analysis of the deposited data

How the results depend on the processing

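No paired analysis was possible because a single library stands for each condition, and no replicate could be left out. Of 50 values recomputed under 11 settings, 29 stayed within the 95% interval of the reported value, or within 1.5 times for a count. An FPKM of at least 10 left 2133 loci, with a median span of 420 bases, FPKM of 15.7, spacing of 736034 bases and gene distance of 110228 bases. An FPKM of at least 2 gave medians of 576 bases, 9.65 and a spacing of 330188 bases. Spans of at least 400 bases gave 617 bases, 8.87 and 486924 bases. At least 5 fragments gave 609 bases, 8.89 and 503422 bases. Fragments were estimated only at spans of 400 to 1200 bases, and 2955 loci remained, against 2957 of the UUO-only loci in that range. That setting thus acted almost wholly as a limit on span. Counting each locus once, shared or not, gave a span of 570 bases and a spacing of 320004 bases. Gene distance was 149426 bases between centres and 167249 bases to genes with an FPKM of at least 1 in either library. With those genes alone 93.2% of the nearest were detected in UUO urine, which the filter brings about, and their median log2 difference was -0.34 in place of 0. Rescaling UUO to equal sums (a factor of 1.54, chosen after seeing the data) left the median over all nearest genes at 0. Of these genes 24.0% were listed at 0 in both libraries, which no scaling changes. A pseudocount of 0.1 cannot change the sign of a difference, so it could not move this median. Rescaling reversed the median of the 1451 nearest genes with an FPKM of at least 1 in either library from -0.37 to 0.18. Under 6 of the settings the density on chromosome X was 16.8% to 21.2% of the autosomal one. Limits on UUO FPKM or on span select on length and level by construction. A WT FPKM under 1 in place of 0 gave 3988 loci against 3986, so the medians of span, level and spacing could hardly move. About 9 fragments stand behind a typical locus, so single levels are imprecise.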
